A study of Mus musculus with 16 samples.

Results

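Mitosis and spindle genes are 54 genes of the G2/M programme: the kinases and cyclins that start mitosis, the spindle checkpoint, the kinetochore, the spindle motors and the machinery that divides the cell. They were chosen by gene name from the deposited count table, where each of the 54 names was found once among 29695 genes. All 54 passed the filter on low counts, which kept 15984 genes. RNA came from the suprarenal aorta of male mice, the stretch of abdominal aorta above the origins of the renal arteries. The animals were C57BL/6 wild type (WT) or lacked Vamp8 (Vamp8-/-, KO), a SNARE protein of endosomal and secretory vesicle fusion. For 5 days a subcutaneous osmotic minipump delivered either saline or, at a rate of 1000 ng/kg/min, angiotensin II (AngII). Each of the 4 groups has 4 libraries that the labels call biological replicates; whether each came from 1 mouse is not stated, and p-values measure the spread between these libraries. Angiotensin II is a vasoconstrictor peptide used in mice to raise blood pressure and provoke aortic disease. The submitters left out aortae that had bled into the wall or looked diseased. The labels do not give the age of the mice, how the knockout was made or whether WT and KO mice were littermates.

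A dividing cell makes the RNAs of these genes in G2 and M and makes little of them in G1 or at rest. Cyclin A and cyclin B switch on Cdk1, the transcription factors Foxm1 and B-Myb (Mybl2) drive the gene set, kinetochores couple chromosomes to spindle microtubules, and the anaphase-promoting complex ends mitosis by marking securin and the cyclins for destruction. In the adult artery few cells divide at rest, so in whole-tissue RNA the programme is used as a measure of proliferation. In such bulk samples fewer cells of a type and less RNA per cell cannot be told apart.

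Many G2/M promoters carry a short element near the start of transcription, the cell cycle genes homology region (CHR), often with CCAAT boxes upstream. Its core was searched here as TTTGAA and the box as CCAAT, both on either strand, in the RefSeq promoter windows of 250 bases before to 50 after the start (build GRCm38.p6). Of the 54 genes, 45 were matched to 47 windows. Ccna2, Cdc25c, Aurkb, Incenp, Kif20a, Tpx2, Pbk, Smc4 and Foxm1 were not in the table. The CHR core was found in 31 of the 45 genes (68.9%), against 20.2% of all 27025 genes in the table. Within 50 bases of the start it was found in 27 of 45 (60.0%), against 5.72% of all genes. A CCAAT box was found in 32 of 45 (71.1%), against 41.1% of all genes, and both motifs in 26 of 45 (57.8%), against 7.97%. The 4 stretches printed here belong to genes that are followed library by library below, and each holds a CCAAT box upstream of a CHR core that lies close to the start. Each runs 5′ to 3′ on the strand of the gene, and capitals mark the CHR core and the CCAAT boxes (ATTGG where the box lies on the other strand).
Cdk1: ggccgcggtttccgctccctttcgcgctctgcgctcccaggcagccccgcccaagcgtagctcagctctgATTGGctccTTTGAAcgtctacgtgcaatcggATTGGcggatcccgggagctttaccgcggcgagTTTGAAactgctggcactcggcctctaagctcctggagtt
Cenpa: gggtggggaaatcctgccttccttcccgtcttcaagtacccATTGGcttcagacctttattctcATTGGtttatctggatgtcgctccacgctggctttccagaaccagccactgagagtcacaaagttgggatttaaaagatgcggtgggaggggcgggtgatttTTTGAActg
Cenpf: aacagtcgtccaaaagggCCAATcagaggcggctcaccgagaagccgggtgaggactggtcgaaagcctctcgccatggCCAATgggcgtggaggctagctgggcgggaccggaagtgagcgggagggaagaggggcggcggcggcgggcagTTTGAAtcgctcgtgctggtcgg
Racgap1: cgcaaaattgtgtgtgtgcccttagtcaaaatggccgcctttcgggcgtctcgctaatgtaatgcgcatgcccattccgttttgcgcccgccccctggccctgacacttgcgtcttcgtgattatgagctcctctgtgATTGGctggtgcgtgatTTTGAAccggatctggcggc
The printed stretches of 175 bases, parts of the windows searched, lie at chr10:69352888-69353062 (minus strand, Cdk1), chr5:30666736-30666910 (plus strand, Cenpa), chr1:189688062-189688236 (minus strand, Cenpf) and chr15:99651632-99651806 (minus strand, Racgap1). The first base of the CHR core lay at position -15 from the start in Cdk1, which had a second core at position -71, and at positions 17, 3 and 6 in Cenpa, Cenpf and Racgap1. Counted per window, the matched genes held 43 CHR cores, of which 32 read on the strand of the gene and 31 began within 50 bases of the start. Prc1 and Ect2 had 2 overlapping windows each, so their cores were counted in both. The start is the one RefSeq lists, and 37 of the 47 windows continued into an annotated transcript of the gene in the sense direction. A match is a match of letters and says nothing of which factor was bound in these aortae.

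**Figure D1:**
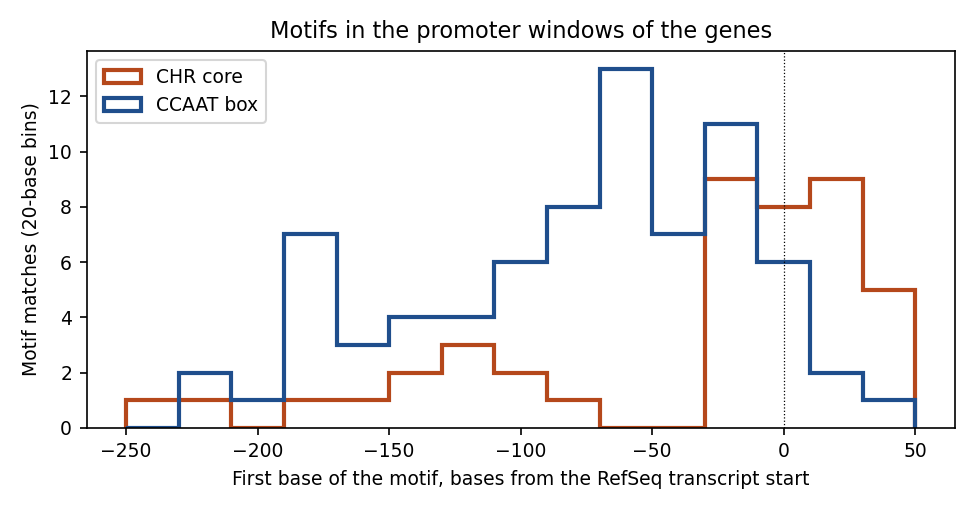
Position of each CHR core and CCAAT box in the 47 promoter windows, in bases from the RefSeq start on the x axis and the number of matches per 20-base bin on the y axis. The 43 CHR matches, counted per window, cluster around the start, and the CCAAT boxes spread upstream of it. Sites of Prc1 and Ect2 appear once for each of their 2 overlapping windows.

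Levels below are CPM, reads of a gene relative to the library total after TMM scaling (trimmed mean of M values), always in the order of replicates 1 to 4. They are not divided by gene length, so they compare libraries and not genes. Differences are log2 fold changes ± SE from edgeR's quasi-likelihood fit of all 16 libraries, and called means a p under 0.05 after Benjamini-Hochberg adjustment across all 15984 genes. Library totals ran from 13284804 to 21643548 counts, and the 54 genes together drew 2548 to 11714 reads per library. Vamp8 itself stood at 45.9 to 60.9 CPM in WT and at 14.1 to 31.4 CPM in 7 of the 8 KO libraries. The exception, the library labelled KO saline replicate 1, had 53.3 CPM, inside the WT range, and the lowest TMM factor, 0.716. KO AngII replicate 4 held neuron and chromaffin cell markers at a summed 3911 CPM, against at most 229 CPM in the other 15 libraries. Skeletal muscle markers summed to 547 CPM in KO saline replicate 3, against at most 22.3 CPM elsewhere. Erythroid and marrow markers summed to 17578 CPM in KO AngII replicate 3, against at most 5643 CPM elsewhere. Smooth muscle markers summed to 8152 CPM in WT saline replicate 2, against 20437 to 22072 CPM in the rest of that group. In KO AngII replicate 4 they summed to 6042 CPM, the lowest of the 16 libraries, against 13075 to 16946 CPM in the rest of its group. The part of these differences in the mitotic levels was not tested. The mitochondrial share of reads was 30.5 ± 2.49% in KO saline and 13.4 ± 3.88%, 12.6 ± 3.06% and 16.1 ± 6.12% in WT saline, WT AngII and KO AngII (mean ± SD, n = 4). All 8 smooth muscle markers, the main cells of the arterial wall, were detected, with a sum of 6042 to 22072 CPM.

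Most of the programme was higher with AngII in WT aorta. Of the 54 genes, 30 were called higher and 0 lower, where 0.438% of all genes were called higher and 0.00626% lower. Their median log2 fold change was 2.61, against -0.01 over all genes tested. In 50 of the 54 genes the 4 WT AngII libraries all lay above the 4 WT saline libraries, against 3.67% of all genes; the other 4 were Ttk, Incenp, Pttg1 and Mybl2. At an unadjusted p under 0.05, 52 were higher, against 5.58% of all genes. Adjusted p of the called genes ran from 0.00981 to 0.0471. The count depended on single libraries: without WT saline replicate 1 or 4 a single gene, Prc1, was called (0.0183% and 0.0184% of all genes). Without WT saline replicate 3 these were Cdk1 and Prc1 (0.0306% of all genes), and without WT saline replicate 2 there were 17 (0.183%). Without WT AngII replicate 3 or 4 there were 7 (0.0733% and 0.0735% of all genes). The members' median stayed between 2.40 and 2.83 whichever library was left out.

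The summed level of the 54 genes was 187, 190.0, 179.9 and 187 CPM in WT saline and 381, 482, 701 and 697 CPM in WT AngII. In KO it was 183, 228, 181 and 169.7 CPM with saline and 215, 304, 279.7 and 404 CPM with AngII. By this sum the 2 saline groups lay in the same range, every WT AngII library lay above both, and KO AngII replicate 1 fell inside the range of KO saline. The sum leans on the genes with most reads. Pttg1 averaged 38.1 CPM in WT saline and 50.3 CPM in KO saline, and Anln 37.4 and 19.1 CPM. Replicates of a group differed together over most genes: WT AngII replicate 1 was the lowest of its group in 44 of the 54 genes and replicate 3 or 4 the highest in 51. In KO AngII replicate 1 was lowest in 43 and replicate 4 highest in 45. KO AngII replicate 4 is the library with the neuron and chromaffin markers, whose part in its high level was not tested.

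**Figure D2:**
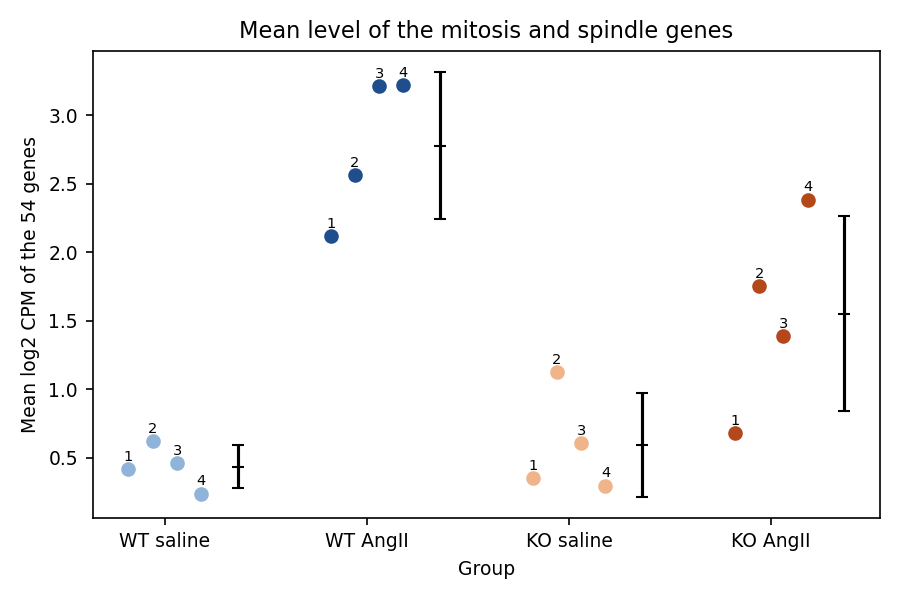
Mean log2 CPM of the 54 genes (y axis) in each of the 16 libraries by group (x axis), with replicate numbers; the bar beside each group is the mean and SD of its 4 libraries. All WT AngII points lie above 2.1, KO AngII points spread from 0.68 to 2.38, and the saline points lie between 0.24 and 1.13.

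Entry into mitosis had the highest median of the roles for AngII in WT, though not in KO or in the average of both genotypes, where the kinetochore role was higher. Its 10 genes are Cdk1, the cyclins Ccna2, Ccnb1 and Ccnb2 that activate it, its small binding partner Cks2, the phosphatase Cdc25c that removes its inhibitory phosphates, and the mitotic kinases Plk1, Aurka, Melk and Pbk. In WT AngII 7 were called higher, and the role's median log2 fold change was 3.10. Cdk1 measured 0.949, 1.76, 1.53 and 0.819 CPM in WT saline and 6.73, 9.29, 17.2 and 20.9 CPM in WT AngII. In KO it measured 2.91, 2.69, 2.74 and 2.46 CPM with saline and 1.96, 4.43, 2.79 and 8.05 CPM with AngII. The WT groups were fully apart, every KO saline library lay above every WT saline library, KO AngII replicate 1 lay below all 4 KO saline libraries, and KO AngII replicate 3 lay among them. The Cdk1 log2 fold change was 3.41 ± 0.46 in WT (adjusted p = 0.00981) and 0.67 ± 0.43 in KO (adjusted p = 0.388). Ccna2, the cyclin of S phase and early mitosis, measured 1.15, 2.28, 1.89 and 1.13 CPM in WT saline and 6.66, 10.8, 15.3 and 19.6 CPM in WT AngII. It measured 1.16, 3.76, 3.16 and 1.07 CPM in KO saline and 2.73, 5.85, 3.77 and 8.05 CPM in KO AngII. Ccna2 was higher in each WT AngII library than in any saline library of either genotype, with a WT log2 fold change of 3.02 ± 0.49 (adjusted p = 0.0177), and in KO replicate 1 with AngII overlapped the saline libraries (1.16 ± 0.47, adjusted p = 0.212).

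The other called entry genes in WT, with adjusted p in brackets, were Pbk 4.22 ± 0.61 (0.00981), Cdc25c 4.21 ± 0.62 (0.0100), Ccnb1 3.95 ± 0.59 (0.0105), Ccnb2 3.18 ± 0.51 (0.0177) and Melk 2.90 ± 0.59 (0.0415). Cdc25c was scarce, with 4 reads in all WT saline libraries together and 76 in WT AngII, so its fold rests on few reads. The other 3 entry genes, also with fully separate WT groups, missed the threshold: Plk1 2.53 ± 0.57 (0.0785), Aurka 1.46 ± 0.32 (0.0642) and Cks2 1.91 ± 0.48 (0.123). Ccnb1 and Cks2 share sequence with pseudogenes (40.2% of the 31-base words of Ccnb1 with Ccnb1-ps, 31.7% of Cks2 with Gm15452), but these copies drew 29 and 25 reads in WT AngII against 554 and 531 of the genes. Plk1 shares 15.2% with Plk-ps1, whose reads went the other way, from 153 in WT saline to 47 in WT AngII, while Plk1 went from 60 to 333. No source used here says how reads shared by such copies were assigned.

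Foxm1, the forkhead factor that activates G2/M genes, measured 1.56, 2.28, 1.95 and 2.00 CPM in WT saline and 6.87, 8.42, 15.9 and 15.6 CPM in WT AngII. It was called higher, with a log2 fold change of 2.58 ± 0.44 (adjusted p = 0.0205). In KO Foxm1 measured 2.13, 4.23, 1.48 and 2.66 CPM with saline and 2.17, 5.56, 6.18 and 9.93 CPM with AngII (1.19 ± 0.42, adjusted p = 0.181), and again replicate 1 alone lay inside the saline range. Mybl2, which joins the MuvB complex on the promoters of these genes, behaved differently. Its levels were 0.339, 0.783, 0.767 and 0.512 CPM in WT saline and 0.618, 0.535, 1.40 and 1.07 CPM in WT AngII. In KO they were 0.129, 1.23, 0.843 and 0.466 CPM and 0.490, 1.72, 0.765 and 0.913 CPM. The Mybl2 groups overlapped in both genotypes, with a WT log2 fold change of 0.59 ± 0.56 (adjusted p = 0.893), at 8 to 21 reads per WT AngII library.

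Of the 8 checkpoint and anaphase genes, 2 were called higher in WT: Cdc20, the activator of the anaphase-promoting complex (2.33 ± 0.45, adjusted p = 0.0342), and Ube2c, its ubiquitin-conjugating enzyme (2.92 ± 0.49, adjusted p = 0.0205). The checkpoint kinases Bub1 (2.80 ± 0.60, adjusted p = 0.0601) and Ttk (2.71 ± 0.94, adjusted p = 0.347), the checkpoint protein Bub1b (1.73 ± 0.55, adjusted p = 0.292) and Sgo1, which protects centromeric cohesion (1.82 ± 0.61, adjusted p = 0.326), were not. Mad2l1, the checkpoint protein that holds back Cdc20, measured 7.86, 4.70, 6.13 and 5.12 CPM in WT saline and 8.45, 10.9, 15.8 and 13.1 CPM in WT AngII. In KO it measured 6.14, 6.68, 4.64 and 6.06 CPM with saline and 6.44, 9.39, 8.64 and 8.73 CPM with AngII. Its WT groups were apart by a narrow margin (1.02 ± 0.22, adjusted p = 0.0652), and its KO groups overlapped through replicate 1. Pttg1 encodes securin, the inhibitor of separase, and was the exception of the set. It measured 37.4, 45.3, 35.0 and 34.8 CPM in WT saline and 34.5, 41.8, 27.1 and 26.8 CPM in WT AngII. In KO it measured 67.6, 43.9, 41.5 and 48.3 CPM with saline and 51.7, 29.6, 36.7 and 35.1 CPM with AngII. Pttg1 was the single gene of the 54 with a negative WT log2 fold change (-0.23 ± 0.20, adjusted p = 0.873), and its lowest WT AngII values fell in replicates 3 and 4, where most of the others were highest. Across the 16 libraries its log2 CPM had a correlation of r = -0.65 with the mean of the other 53 genes, against 0.53 (Mybl2) or higher for each of the others; the libraries share depth and tissue composition, so r is given as a description.

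The chromosomal passenger complex, which corrects faulty kinetochore attachments, consists of the kinase Aurkb and its partners Birc5 (survivin), Cdca8 (borealin) and Incenp. Aurkb (2.63 ± 0.51, adjusted p = 0.0342) and Birc5 (3.28 ± 0.61, adjusted p = 0.0317) were called higher in WT AngII. Cdca8 measured 1.22, 1.24, 1.71 and 0.717 CPM in WT saline and 3.43, 5.15, 9.49 and 7.85 CPM in WT AngII. In KO Cdca8 measured 0.710, 1.77, 0.422 and 0.866 CPM with saline and 0.909, 2.51, 2.13 and 5.76 CPM with AngII. The WT groups of Cdca8 were apart without passing the threshold (2.40 ± 0.54, adjusted p = 0.0776). Incenp, the scaffold, measured 5.90, 3.72, 4.13 and 5.38 CPM in WT saline and 5.49, 8.15, 10.9 and 9.28 CPM in WT AngII. In KO Incenp measured 2.32, 5.45, 4.43 and 5.46 CPM with saline and 4.48, 7.82, 4.54 and 9.24 CPM with AngII. Incenp groups overlapped in both genotypes, and its WT log2 fold change of 0.82 ± 0.32 (adjusted p = 0.424) was the smallest of the complex.

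All 7 centromere and kinetochore genes were called higher in WT AngII, with a median log2 fold change of 3.00. Cenpa, the histone H3 variant that marks the centromere, measured 3.66, 8.29, 3.13 and 2.51 CPM in WT saline and 11.7, 12.6, 15.6 and 17.7 CPM in WT AngII. In KO Cenpa measured 8.27, 4.99, 4.01 and 5.99 CPM with saline and 7.42, 5.36, 4.10 and 7.99 CPM with AngII. Every WT AngII library lay above every library of the other 3 groups, which overlapped one another. Its log2 fold change was 1.72 ± 0.35 in WT (adjusted p = 0.0471) and 0.09 ± 0.35 in KO (adjusted p = 0.897), where the sign changed when KO saline replicate 3 (-0.049), KO AngII replicate 1 (-0.0019) or KO AngII replicate 4 (-0.059) was left out. Cenpf, a large outer kinetochore protein, measured 1.56, 1.37, 1.06 and 0.615 CPM in WT saline and 5.01, 9.76, 9.15 and 12.8 CPM in WT AngII. In KO Cenpf measured 0.452, 2.07, 1.26 and 0.666 CPM with saline and 1.96, 4.23, 2.35 and 8.39 CPM with AngII. Unlike Cenpa it had a sizeable KO estimate (1.93 ± 0.53, adjusted p = 0.129) beside its WT value of 3.00 ± 0.54 (adjusted p = 0.0283), and only KO AngII replicate 1 lay inside the KO saline range. The remaining kinetochore genes in WT, with adjusted p in brackets, were Cenpi 3.67 ± 0.70 (0.0341) of the inner kinetochore, Cenpe 3.14 ± 0.60 (0.0341), a kinesin that brings chromosomes to the spindle equator, and the Ndc80 complex genes Ndc80 3.44 ± 0.63 (0.0298), Spc25 2.89 ± 0.50 (0.0207) and Nuf2 2.88 ± 0.59 (0.0430).

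Among the 9 genes of spindle motors and spindle assembly, 6 were called higher in WT. Tpx2, which activates aurora A and seeds microtubules, measured 4.88, 2.41, 2.77 and 3.02 CPM in WT saline and 9.27, 16.1, 24.3 and 21.6 CPM in WT AngII. In KO Tpx2 measured 2.20, 4.53, 2.53 and 2.13 CPM with saline and 3.36, 9.74, 5.58 and 12.6 CPM with AngII. The WT difference was 2.45 ± 0.42 (adjusted p = 0.0207), and in KO (1.46 ± 0.41, adjusted p = 0.137) replicate 1 with AngII lay below replicate 2 with saline. Nusap1, a spindle microtubule bundler, measured 2.10, 2.02, 1.42 and 2.25 CPM in WT saline and 5.77, 6.15, 7.88 and 10.6 CPM in WT AngII. In KO Nusap1 measured 1.68, 2.92, 2.32 and 1.73 CPM with saline and 2.31, 3.98, 3.88 and 6.39 CPM with AngII. Its WT groups were apart (1.96 ± 0.32, adjusted p = 0.0177) and its KO groups overlapped (0.94 ± 0.32, adjusted p = 0.166). The other calls in WT, with adjusted p in brackets, were Depdc1a 4.21 ± 0.69 (0.0177), the spindle protein Hmmr 4.19 ± 0.77 (0.0291), the microtubule depolymerase Kif2c 3.69 ± 0.60 (0.0177) and Kif11 2.93 ± 0.59 (0.0415), the motor that pushes spindle poles apart. Kif15 (2.75 ± 0.57, adjusted p = 0.0501), Kif4 (2.83 ± 0.70, adjusted p = 0.118) and Kif18a (1.15 ± 0.30, adjusted p = 0.142), motors of the spindle and chromosomes, were not called. Depdc1a shares 66.0% of its 31-base words with Gm5596, which drew 10 reads in WT AngII against 233 of Depdc1a.

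Of the 8 cytokinesis genes, 2 were called higher in WT, and the role's median log2 fold change was 2.12. Prc1, which bundles the overlapping microtubules of the central spindle, had a WT log2 fold change of 3.01 ± 0.39 (adjusted p = 0.00981). Racgap1, which forms the centralspindlin complex with Kif23, measured 1.69, 2.54, 3.01 and 2.36 CPM in WT saline and 7.28, 12.6, 18.04 and 18.8 CPM in WT AngII. In KO Racgap1 measured 1.23, 3.99, 2.67 and 1.73 CPM with saline and 2.52, 7.03, 5.36 and 14.1 CPM with AngII. It was called in WT (2.56 ± 0.49, adjusted p = 0.0341), and in KO its replicate 4 with AngII reached the WT AngII range while replicate 1 stayed among the saline libraries (1.60 ± 0.48, adjusted p = 0.142). Anln, the anillin scaffold that links actin, septins and RhoA at the cleavage furrow, measured 39.7, 19.6, 41.6 and 49.0 CPM in WT saline and 59.2, 52.7, 83.5 and 74.2 CPM in WT AngII. In KO Anln measured 16.7, 25.5, 19.7 and 14.6 CPM with saline and 34.8, 42.3, 50.5 and 29.2 CPM with AngII. Anln was the 1 gene of the 54 with a KO estimate (1.03 ± 0.26, adjusted p = 0.113) above its WT estimate (0.85 ± 0.26, adjusted p = 0.262), and neither passed. The groups did not overlap within either genotype, and every KO AngII library lay below every WT AngII library. WT estimates of the kinesins and of Ect2, the activator of RhoA at the furrow, with adjusted p in brackets, were Ect2 2.17 ± 0.48 (0.0672), Kif20a 2.14 ± 0.49 (0.0827), Kif20b 2.10 ± 0.47 (0.0764), Kif23 1.87 ± 0.45 (0.107) and Kif14 1.80 ± 0.48 (0.154). Kif20a shares 32.6% of its 31-base words with Cdc23, a gene that drew 2439 reads in WT saline against 88 of Kif20a. Ccna2 shares 16.5% with Exosc9 (816 reads in WT saline against 106 of Ccna2), and Kif4 shares 16.2% with Pdzd11 (1159 against 34 of Kif4). In WT AngII Cdc23 drew 2446 reads against 360 of Kif20a, Exosc9 848 against 816 of Ccna2, and Pdzd11 1241 against 234 of Kif4. Words on either strand were counted as shared. The counts of Kif20a, Ccna2 and Kif4 are uncertain because of this sharing, whose part in their AngII estimates was not tested.

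Mitotic chromosome genes comprised the topoisomerase Top2a, the proliferation antigen Mki67 (Ki-67) and 4 condensin subunits. Mki67 measured 4.07, 7.44, 4.36 and 5.27 CPM in WT saline and 19.9, 26.3, 41.1 and 47.0 CPM in WT AngII. In KO Mki67 measured 2.71, 7.45, 5.48 and 3.26 CPM with saline and 6.65, 11.4, 15.6 and 21.4 CPM with AngII. WT AngII libraries 1 to 4 were all above the saline libraries of both genotypes, and 3 of the 4 KO AngII libraries were too. Its log2 fold change was 2.67 ± 0.40 in WT (adjusted p = 0.0105) and 1.55 ± 0.39 in KO (adjusted p = 0.113). Top2a, called in WT at 2.99 ± 0.43 (adjusted p = 0.00981), had the lowest adjusted p of the 54 genes in KO (1.79 ± 0.42, adjusted p = 0.106). Smc4, a condensin ATPase, measured 21.8, 23.0, 20.1 and 22.6 CPM in WT saline and 28.4, 30.4, 40.2 and 38.0 CPM in WT AngII. In KO Smc4 measured 12.9, 26.0, 23.6 and 21.0 CPM with saline and 23.6, 31.9, 31.5 and 29.7 CPM with AngII. The condensin estimates in WT were lower than those of Top2a and Mki67 and, with adjusted p in brackets, read Ncapg 2.07 ± 0.52 (0.128), Smc2 1.13 ± 0.23 (0.0430), Ncapd2 0.93 ± 0.19 (0.0505) and Smc4 0.65 ± 0.19 (0.213); Smc2 alone was called.

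**Figure D3:**
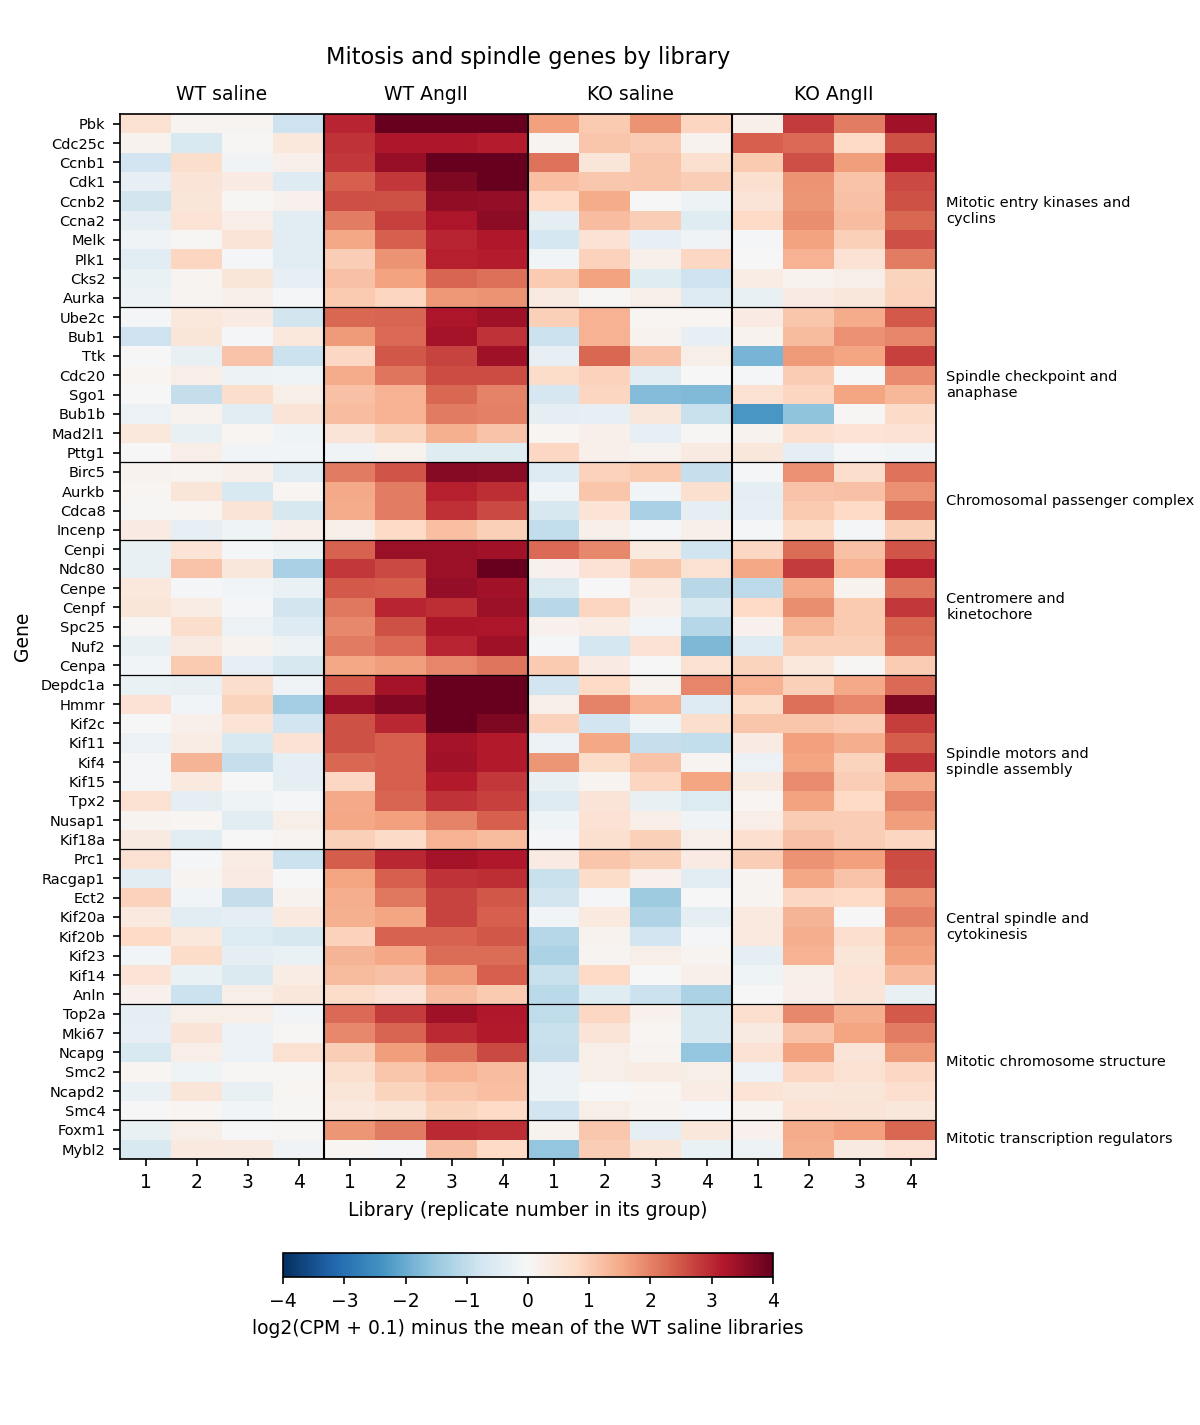
Level of each of the 54 genes (rows, by role) in each of the 16 libraries (columns, by group and replicate), as log2(CPM + 0.1) minus the gene's mean over the WT saline libraries; values beyond 4 take the darkest shade. Nearly every row is red across WT AngII, strongest in replicates 3 and 4, and paler across KO AngII except replicate 4. Pttg1 is a nearly flat row, and Mybl2 varies between libraries with overlapping groups.

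In KO aorta 0 of the 54 genes were called in either direction by edgeR, and 0% of all genes were called higher and 0.0501% lower. At an unadjusted p under 0.05, 32 of the 54 were higher and 0 lower, against 11.8% and 7.39% of all genes. DESeq2 called 12 higher, against 2.48% of all genes it tested, and limma voom with library weights called Anln, against 1.88%. The median log2 fold change was 1.13, against 0.02 over all genes, and single genes ran from -0.40 ± 0.20 (Pttg1) to 1.97 ± 0.58 (Cdc25c). In 7 genes all KO AngII libraries lay above all KO saline libraries (Kif2c, Kif20b, Anln, Ect2, Ncapg, Ncapd2 and Ndc80), against 4.25% of all genes. Role medians in KO ran from 0.59 for checkpoint and anaphase genes and 0.88 for the 2 transcription regulators to 1.32 for cytokinesis and 1.56 for the kinetochore. The KO estimates lean on KO AngII replicate 4: without it the median was 0.70, and without it and the library labelled KO saline replicate 1 it was 0.65.

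The direct comparison of the genotypes under AngII gave 0 of the 54 genes called by edgeR, where 0.995% of all genes were called higher and 1.03% lower in KO. At an unadjusted p under 0.05, 41 of the 54 were lower in KO and 0 higher, against 7.64% and 10.3% of all genes, and the median log2 fold change was -1.21 against 0.04. The lowest adjusted p was 0.0579, for Cdk1 (-1.65 ± 0.43). The largest estimate was that of Depdc1a (-2.28 ± 0.60, adjusted p = 0.0612), and the other end of the range was Pttg1 (0.23 ± 0.20, adjusted p = 0.622). All KO AngII libraries lay below all WT AngII libraries in 7 genes, Cdc25c, Bub1b, Cenpa, Cenpe, Depdc1a, Anln and Cks2, against 4.8% of all genes. Bub1b, among the lowest in KO, measured 5.22, 5.81, 9.56 and 9.16 CPM in WT AngII and 0.350, 0.639, 2.24 and 3.77 CPM in KO AngII (-2.08 ± 0.56, adjusted p = 0.0631). The genotype comparison shares its WT AngII libraries with the WT effect above. The calls depended on the test and on single libraries: DESeq2 called 21 of the 54 lower, against 2.79% of all genes, and limma voom 15, against 2.06%. Without KO AngII replicate 4 edgeR called 7 (Cdk1, Cdc20, Bub1b, Cenpe, Kif2c, Prc1 and Ube2c), against 0.756% of all genes. It called 1 without WT saline replicate 2 (Cenpa, against 1.28%) or without KO saline replicate 1 (Depdc1a, against 1.5%). In the same comparison all 10 macrophage and monocyte markers had negative estimates (median -0.99, 7 at an unadjusted p under 0.05, 0 called). All 8 fibroblast markers did too (median -0.75, 6 at an unadjusted p under 0.05), and edgeR called 2 of them lower in KO, the collagen gene Col1a1 (-1.65 ± 0.41, adjusted p = 0.0499) and the microfibril gene Mfap5 (-1.22 ± 0.29, adjusted p = 0.0446). The part of these cells in the genotype difference was not tested. Of the deposited genes, 2725 without a symbol have 0 reads in every WT library, and no source used here says whether WT and KO reads were counted in 1 run, so counting and genotype cannot be told apart here.

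With saline, 0 of the 54 genes were called between the genotypes by edgeR, where 1.23% of all genes were higher and 1.78% lower in KO, and the median log2 fold change was 0.17 against 0.05. At an unadjusted p under 0.05, 4 were higher in KO (Ccnb1, Cdk1, Cenpi and Pbk) and 1 lower (Anln), against 10.1% and 11.7% of all genes, so these counts do not exceed the background. Cdk1 (1.09 ± 0.45, adjusted p = 0.177) and Pbk (1.45 ± 0.58, adjusted p = 0.173) were the 2 genes whose KO saline libraries all lay above the WT saline libraries, against 5.17% of all genes. Pbk measured 0.881, 0.587, 0.590 and 0.256 CPM in WT saline and 1.87, 1.23, 2.11 and 1.07 CPM in KO saline. Single genes ran from Anln (-0.97 ± 0.26, adjusted p = 0.0607) to Cenpi (1.70 ± 0.71, adjusted p = 0.186), the latter on 1 to 20 reads per KO library. Anln was called lower by DESeq2, by limma voom and, with KO AngII replicate 4 left out, by edgeR, where 4.87%, 10.4% and 3.41% of all genes were called lower. The KO saline group carried the high mitochondrial share, whose part in these levels was not tested.

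The interaction asks whether the AngII effect differed between genotypes. The KO effect was smaller than the WT effect in 53 of the 54 genes, with Anln the exception, but 0 genes were called by edgeR, where 0% of all genes were called higher and 0.0188% lower. At an unadjusted p under 0.05, 25 of the 54 had a smaller effect in KO and 0 a larger one, against 4.61% and 6.61% of all genes in those directions. The median difference of the log2 fold changes was -1.36 against 0.01 over all genes, and the lowest adjusted p was 0.361. Estimates ran from -3.35 ± 0.93 for Depdc1a to 0.19 ± 0.37 for Anln, with -3.14 ± 0.93 for Cenpi, -3.08 ± 0.78 for Pbk, -2.80 ± 0.77 for Ccnb1, -2.74 ± 0.62 for Cdk1, -1.83 ± 0.52 for Prc1 and -1.62 ± 0.49 for Cenpa. DESeq2 called Cdk1 and Pbk, against 0.167% of all genes in that direction, and limma voom called Cenpa, against 0.313%. By role the median difference was -2.13 for mitotic entry, -2.12 for the spindle and -0.57 for chromosome structure. Across the 54 genes the WT and KO effects had a Spearman correlation of 0.52, a description over genes that share the same libraries.

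**Figure D4:**
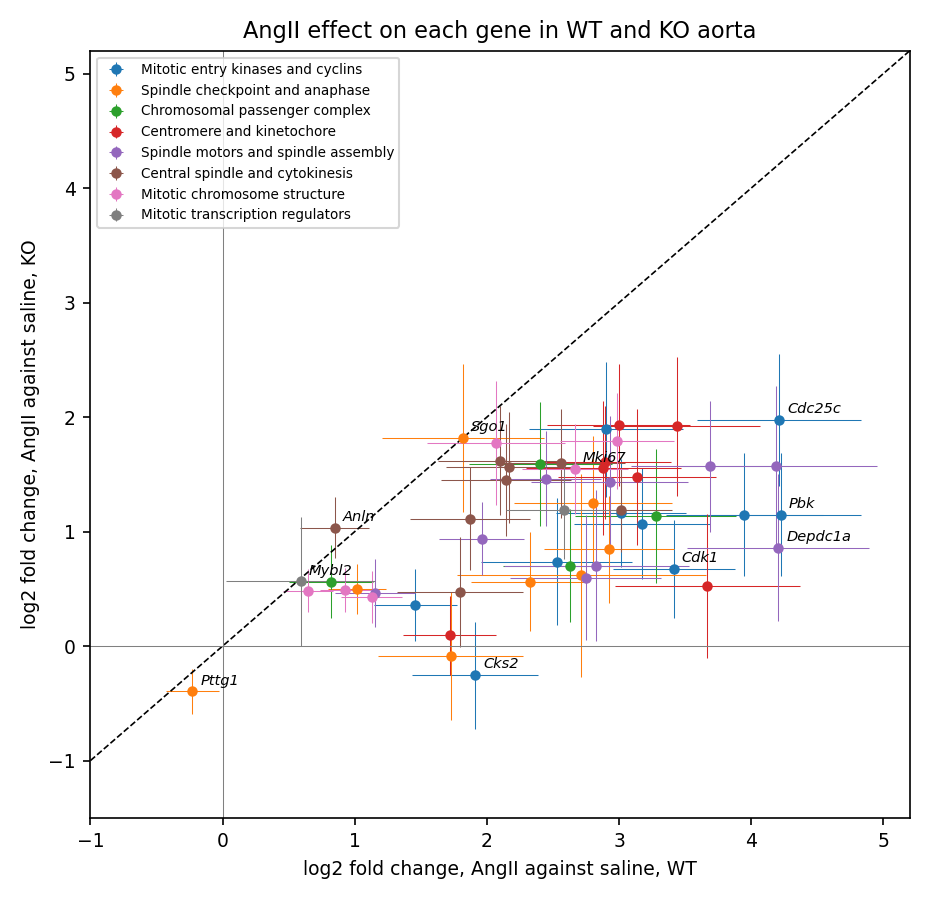
Log2 fold change of AngII against saline in WT (x axis) and in KO (y axis) for each of the 54 genes, coloured by role, with bars of 1 SE; the dashed line marks equal effects. All genes but Anln lie below the line, and Pttg1 is the 1 gene left of 0 on the x axis.

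Averaged over both genotypes, 39 of the 54 genes were called higher with AngII and 0 lower, where 0.857% of all genes were higher and 0.181% lower. They included 29 of the 30 genes called in WT, all but Cenpa, and 10 more: Anln 0.94 ± 0.19 (0.0244), Bub1 2.03 ± 0.42 (0.0326), Cdca8 2.00 ± 0.38 (0.0219), Ect2 1.87 ± 0.34 (0.0187), Kif20a 1.80 ± 0.35 (0.0227), Kif20b 1.86 ± 0.33 (0.0179), Kif23 1.49 ± 0.32 (0.0384), Mad2l1 0.76 ± 0.16 (0.0323), Ncapd2 0.71 ± 0.14 (0.0224) and Ncapg 1.92 ± 0.38 (0.0239), as log2 fold change ± SE with adjusted p in brackets. Of those 10, 7 take part in cytokinesis or chromosome structure. The largest average effect was that of Cdc25c (3.09 ± 0.42, adjusted p = 0.00462), and Prc1 (2.10 ± 0.27) and Top2a (2.39 ± 0.30) had the lowest adjusted p, 0.00339 each. The WT effect enters this average, so the count is not separate evidence. Leaving out 1 library gave 18 to 44 genes, with 18 without WT AngII replicate 3 or 4 (0.214% and 0.202% of all genes) and 25 without WT saline replicate 1, WT saline replicate 3 or KO saline replicate 3 (0.391%, 0.337% and 0.313%).

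**Figure D5:**
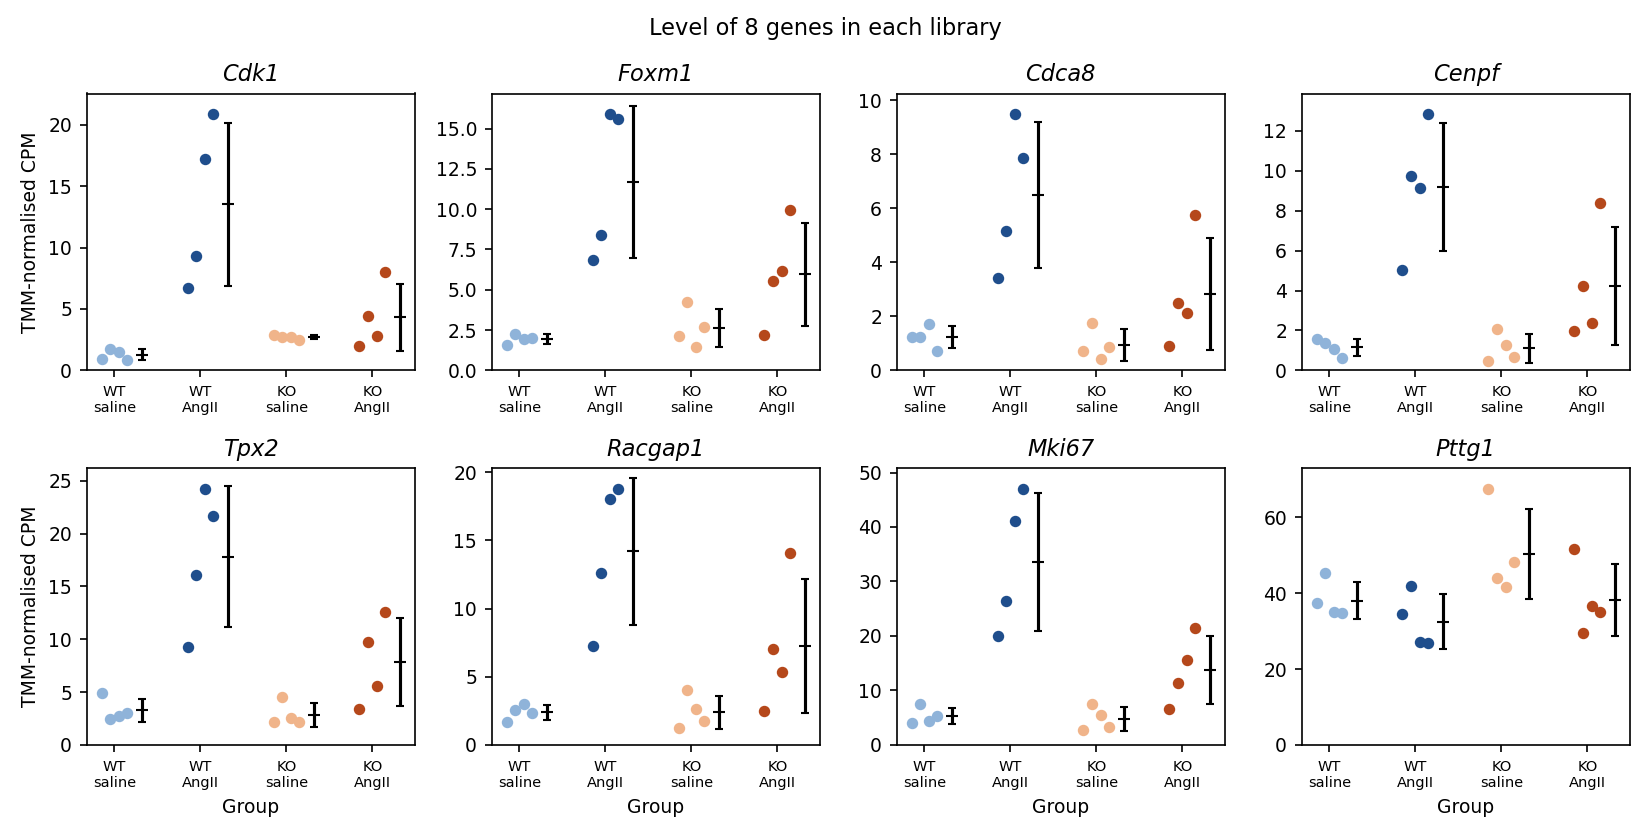
TMM-normalised CPM (y axes from 0) of 8 genes in each library by group, with the mean and SD of 4 libraries beside the points. In Cdk1, Foxm1, Cdca8, Cenpf, Tpx2, Racgap1 and Mki67 all WT AngII points lie above the WT saline points; in Pttg1 the groups overlap.

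Promoter motif and response were compared as a description. The 31 genes with a CHR core had a median WT log2 fold change of 2.67 with 17 called, and the 14 matched genes without one a median of 2.38 with 7 called. In KO these medians were 1.07 and 1.04. The gene that went its own way, Pttg1, had no core in its window, and nor did Ccnb1 (WT log2 fold change 3.95 ± 0.59), whose window held a CCAAT box.

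Other lists were read in the same fit to place the mitotic genes in the cell cycle. Of 57 further mitotic genes, 14 were called higher in WT, against 0.438% of all genes, and the list's median log2 fold change was 1.93. The 14 were Ckap2, Shcbp1, Spag5, Aspm, Nek2, Spdl1, Ckap2l, Dlgap5, Knl1, Knstrn, Kif22, Cdca2, Ncaph and Arhgap11a. In KO edgeR called 0 and the median was 0.62. At an unadjusted p under 0.05, 17 were higher in KO, against 11.8% of all genes. Knstrn, a spindle and kinetochore protein, was lower with AngII in KO than in WT (edgeR, -1.61 ± 0.36, adjusted p = 0.0380), where 1.03% of all genes were called lower. Among 37 measured genes of DNA replication and S phase, 3 were called higher in WT, against 0.438% of all genes. They were Clspn, a replication checkpoint mediator (2.38 ± 0.45), Rrm2, a ribonucleotide reductase subunit (1.93 ± 0.33), and Cdc6, which loads the replicative helicase (1.52 ± 0.28). At an unadjusted p under 0.05, 15 of the 37 were higher in WT, against 5.58% of all genes. In 14 the WT AngII libraries all lay above the WT saline libraries, against 3.67% of all genes. The list's median was 0.42, with 33 estimates positive and 4 negative. Mcm2, a helicase subunit, stood at 0.19 ± 0.20 and the clamp Pcna at 0.18 ± 0.19. Of 15 G1 cyclin and E2F genes, edgeR called 0 for AngII within WT and 0 within KO, with medians of 0.57 and 0.26. At an unadjusted p under 0.05, 6 were higher in WT and 1 in KO, against 5.58% and 11.8% of all genes. In the average over both genotypes edgeR called 1 higher, the transcription factor E2f3 (0.61 ± 0.11, adjusted p = 0.0214), against 0.857% of all genes. With saline it called 1 higher in KO than in WT, cyclin D1 (Ccnd1, 0.99 ± 0.25, adjusted p = 0.0466), against 1.23% of all genes. The 10 genes outside the 54 whose log2 CPM followed the members' mean most closely over the 16 libraries, among 14369 genes with a mean of at least 1 CPM, were Ckap2, Spag5, ENSMUSG00000120992, Nek2, Kif22, Ckap2l, Pclaf, Iqgap3, Pimreg and Aspm, with r from 0.966 to 0.951. Of these 10, 6 belong to the list of further mitotic genes, and 1 is named in the table by its identifier alone. All 16 libraries share the AngII contrast, so these r values include it. With the group means removed, r of the same 10 genes ran from 0.691 (Aspm) to 0.933 (ENSMUSG00000120992).

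Marker sums of other cell types were read in the same libraries. The 10 macrophage and monocyte markers, none at 0, summed to 268 to 556 CPM in WT saline, 349 to 1086 CPM in WT AngII, 291 to 387 CPM in KO saline and 259.6 to 414 CPM in KO AngII. For AngII edgeR called 0 of the 10, with a median log2 fold change of 0.89 in WT and -0.01 in KO. At an unadjusted p under 0.05, 5 were higher in WT and 0 in KO, against 5.58% and 11.8% of all genes. The 8 fibroblast markers summed to 4321 to 7655 CPM in WT saline, 5851 to 16313 CPM in WT AngII, 3003 to 4261 CPM in KO saline and 2917 to 4636 CPM in KO AngII. The collagen gene Col1a1 had the highest mean of the 8 in every group, at 6384 CPM with AngII in WT. For AngII in WT edgeR called 0 of the 8, with a median log2 fold change of 0.40. At an unadjusted p under 0.05, 3 were higher, against 5.58% of all genes, and 1 lower, against 514 of the 15984 genes. Estimates ran from -0.64 ± 0.24 (Clec3b) to 1.58 ± 0.38 (Lum). Col1a1 stood at 0.94 ± 0.40, Pdgfra at 0.08 ± 0.27 and Pi16 at 0.02 ± 0.23. In KO the median was -0.01, with 0 called. At an unadjusted p under 0.05, 0 were higher and 2 lower in KO, against 11.8% and 7.39% of all genes. Within WT AngII replicates 3 and 4 had the highest mitotic level and also the highest sums of both lists. These sums were 761 and 1086 CPM for macrophage and 9695 and 16313 CPM for fibroblast markers. WT AngII replicate 1 lay above replicate 2 in both lists (494 against 349 CPM and 6586 against 5851 CPM) but had the lower mitotic sum. In KO AngII replicate 4 had the highest mitotic level but the highest sum of neither list. Its group there read 269, 259.6, 414 and 355 CPM for macrophage and 2917, 4636, 4558 and 4455 CPM for fibroblast markers. The part of these cells in the mitotic signal was not tested. Markers of T, B and NK cells were lowest in WT AngII replicates 3 and 4, at 33.0, 19.5, 6.21 and 2.62 CPM in replicates 1 to 4 of that group.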

How the data were processed

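Poly-A RNA was sequenced from 16 suprarenal aorta libraries. The authors deposited raw counts for each gene, as whole numbers without scaling. The submitters' processing notes name HISAT2 (2.0.5), featureCounts (1.5.0-p3), DESeq2 (1.20.0) and the build GRCm39. No source used here gives the annotation release, the strand setting or the handling of reads with several matches. The 54 genes, their roles, the other lists and the tests were chosen with earlier results of these data known.

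Counts were filtered with edgeR's filterByExpr, scaled by TMM and fitted in edgeR 4.0.16 (R 4.3.3) with its quasi-likelihood test, 1 mean per group, 12 residual degrees of freedom, two-sided, with Benjamini-Hochberg adjustment over 15984 genes. The SE is the size of the log2 fold change over the root of the F statistic. The scripts were tested on simulated data. Alternatives were RLE scaling, 2 other filters, DESeq2 1.42.0, limma 3.58.1 voom with quality weights, the replicate number as a block, only the groups compared and libraries left out. In each role the 2 genes with the highest mean CPM are given by library; every called gene and the extremes of each comparison are named, and further genes were named after their values were seen. Where reads match several genes, shared sequence is the share of 31-base words of a gene's GENCODE vM21 transcripts found in another gene. Vamp8 was read in every library as a check of the labels. Total counts of 13284804 to 21643548 set the precision. No coordinates of the files' build are given, since the reference was GRCm38.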

Additional observations from a re-analysis of the deposited data

Results flagged for a closer look

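Over 72 sets of 4 replicates (16 genes by library, and the sum and mean of the 54 genes, in each group), 1 library stood far from the others of its group: Tpx2 in KO saline replicate 2, at 4.53 CPM, against 2.13 to 2.53 CPM in the other 3. The gap took 0.834 of the range, just past Dixon's critical value for 4 samples, and chance gives such a gap in about 1 in 20 sets. The same library was the highest of KO saline for 32 of the 54 genes.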

How the results depend on the processing

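For AngII in WT, DESeq2 called 46 of the 54 genes higher (1.18% of all genes) and a fit with the replicate block called 18 (0.263%), against 30 (0.438%); RLE scaling, no filter, a filter of 1 CPM in 4 libraries, limma voom and a fit of only the 2 groups gave 27 to 39 (0.199% to 0.945% of all genes). Each library left out gave 1 to 41. For AngII in KO, DESeq2 called 12 higher and limma voom 1, and each library left out gave 0. KO against WT under AngII gave 21 lower by DESeq2, 15 by limma voom, 7 without KO saline replicate 1 and KO AngII replicate 4 together, and 0 to 7 with each library left out. KO against WT under saline gave 1 lower by DESeq2, 1 by limma voom and 0 to 1 with a library left out. The interaction gave 2 lower by DESeq2, 1 by limma voom and 0 with each library left out, and the average effect gave 18 to 44 with a library left out. The cause of these shifts was not tested. The Cenpa effect in KO was 0.09, in a range of -0.059 to 0.32. It changed sign to -0.049 without KO saline replicate 3, -0.059 without KO AngII replicate 4 and -0.0019 without KO AngII replicate 1. No other log2 fold change of a single gene that was followed over these fits, inside or outside the 54, changed sign. The WT estimates of the fibroblast markers Clec3b, Lum, Col1a1, Pdgfra and Pi16 were not followed over them. Outside the 54, each call named was lost under some alternative except that of Aspm in WT. Medians over the 54 genes kept their sign in each of these fits, from 2.32 to 2.83 in WT and 0.65 to 1.37 in KO. Over all genes tested, same-numbered libraries did not vary together as a rule (correlations -0.41 to 0.43, 8 of 24 over 0.1). The numbers were therefore not taken as pairs, and the block moved no other count of calls by over 1.5 times. Among the 54 genes alone, replicate 1 was the lowest library in 44 genes in WT AngII and in 43 in KO AngII. Whether the numbers mark pairs for these genes was not tested. Genes with few reads, such as Cdc25c, Cenpi and Depdc1a, limit the precision of their folds.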

Other observations

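Inhibitors of cyclin-dependent kinases and the pocket proteins, which hold cells out of the cycle, were read in a list of 16 genes. The list also held the MuvB genes Lin9, Lin37, Lin52 and Lin54 and the E2F and DP factors E2f4 and Tfdp1. Of the 16 genes, 15 were measured, and the counts and medians are those of the whole list. For AngII edgeR called 0 in WT and 0 in KO, with a median log2 fold change of 0.20 in WT and -0.01 in KO. At an unadjusted p under 0.05, 3 were higher in WT, against 5.58% of all genes, and 2 lower in KO, against 7.39%. One was called between genotypes, with both infusions: Cdkn1a, the p53 target p21, was lower in KO with saline (log2 fold change -1.198 ± 0.297, edgeR adjusted p = 0.0432, range over the alternatives 0.00386 to 0.117) and with AngII (-1.44 ± 0.30, edgeR adjusted p = 0.0250, range 0.000299 to 0.0974). Of all genes, 1.78% were called lower in KO with saline and 1.03% with AngII. The mean level of Cdkn1a was 77.9 CPM in WT saline, 89.2 CPM in WT AngII, 33.9 CPM in KO saline and 32.8 CPM in KO AngII. Cdkn1b, the inhibitor p27, stood at 65.6, 56.9, 62.4 and 63.0 CPM in the same order of groups.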
